A study of Mus musculus with 10 samples.

Results

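This section describes the genes of the voltage-gated sodium channels, the voltage-gated calcium channels and the hyperpolarization-activated cation channels (HCN channels) in ribosome-bound RNA from mouse cortex. Members were the protein-coding genes whose mouse symbol begins Scn and ends in a number with a or b, begins Cacna, Cacnb or Cacng, or is Hcn with a number. This gave 44 genes of the 55536 in the count table: 10 sodium channel alpha subunits, 4 sodium channel beta subunits, 10 calcium channel alpha-1 subunits, 4 alpha-2-delta subunits, 4 beta subunits, 8 gamma subunits and 4 HCN subunits. Of these, 40 passed the filter on low counts and were tested among 20301 genes.

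An alpha subunit forms the sodium pore and carries the upstroke of the action potential, while beta subunits set its gating and hold the channel at the axon. A calcium channel is built around an alpha-1 pore, with a cytoplasmic beta subunit and an extracellular alpha-2-delta subunit that help to bring it to the membrane. Calcium entry through these pores triggers transmitter release and dendritic calcium spikes. The gamma genes were named after a muscle calcium channel subunit, but most of those in brain are transmembrane AMPA receptor regulatory proteins (TARPs), which traffic and gate glutamate receptors. HCN channels open on hyperpolarization, are regulated by cyclic AMP and set the resting potential and dendritic integration of cortical neurons.

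The study used translating ribosome affinity purification, in which a Cre-dependent virus places a GFP tag on ribosomal protein L10a and anti-GFP beads then pull down the tagged ribosomes with their RNA. The virus AAV5-EF1α-Flex-EGFPL10a was delivered to primary somatosensory cortex, at the site the labels write as S1DZ, at 400 nl per side and 0.1 µl per minute, and left for 4 weeks. The 3 groups are the Il-17rb-Cre, Il-17ra-Cre and Il-17rc-Cre mice, with 3, 3 and 4 libraries, named for the interleukin-17 receptor gene that drives Cre. All 10 libraries received the same virus, and the comparisons ask how the cells marked by 1 driver differ from those marked by another. The EF1α promoter is active in many cell types, so which cells are tagged depends on where Cre and virus meet. Libraries of whole-tissue RNA were not used here, so every level is relative to other pull-downs. Whether each library came from its own animals is not stated, and p-values reflect only the spread among the libraries, which may be technical. Neither age, sex nor strain is stated in the sources used here.

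Library depth ran between 39692925 and 165844244 counts. Levels are given in CPM, each library's counts scaled to a common library size, with the trimmed mean of M values (TMM) as scaling factor. None of the driver transcripts was highest by test in its own group, so the groups are named by their labels throughout. Il17rb averaged 0.714 ± 0.138 CPM in Il-17rb-Cre, 2.26 ± 1.31 CPM in Il-17ra-Cre and 1.27 ± 1.13 CPM in Il-17rc-Cre libraries (SD), with no call. Il17ra, at 26.5 ± 7.31, 18.5 ± 2.53 and 18.8 ± 2.97 CPM in the same order, had no call either. Il17rc, at 1.89 ± 1.15, 29.4 ± 10.4 and 28.3 ± 8.37 CPM, was not called between Il-17ra-Cre and Il-17rc-Cre (log2 fold change 0.06 ± 0.39) and was lower in Il-17rb-Cre libraries than in both other groups, with log2 fold changes (± SE) of -3.96 ± 0.47 against Il-17ra-Cre and -3.90 ± 0.46 against Il-17rc-Cre (edgeR adjusted p = 0.000171 and 0.000139). Il-17ra-Cre replicates 1 and 2 stood apart from replicate 3, with Rpl10a at 58.7 and 70.9 CPM against 679 CPM in replicate 3, and with summed oligodendrocyte markers of 44611 and 30675 CPM against 5327 CPM. Summed striatal projection neuron markers varied widely in Il-17rc-Cre libraries, at 649, 125, 1256 and 474 CPM in replicates 1 to 4, and replicates 1 and 3 had the highest sums. Values with and without these libraries are given where a result rests on them.

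The 250 bases before the start of transcription are shown for 4 members, because Cacng5 is the only member called lower in Il-17rb-Cre, Hcn2 is the only one called between the other 2 groups, and Cacna2d3 and Cacna1i are called members with and without a GC box. The sequences are from RefSeq on build GRCm38.p6, in the direction of transcription. Capitals mark the GC box, written GGGCGG or, read on the other strand, CCGCCC, and would also mark the TATA box TATAAA, of which none of the 4 holds a copy.
Cacna2d3 (chr14:29721865-29722114, minus strand): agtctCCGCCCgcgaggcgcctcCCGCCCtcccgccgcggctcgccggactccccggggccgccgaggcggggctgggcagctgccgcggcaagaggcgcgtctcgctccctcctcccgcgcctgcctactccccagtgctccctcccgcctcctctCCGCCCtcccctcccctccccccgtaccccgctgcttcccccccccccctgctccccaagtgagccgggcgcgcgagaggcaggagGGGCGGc
Cacna1i (chr15:80286988-80287237, plus strand): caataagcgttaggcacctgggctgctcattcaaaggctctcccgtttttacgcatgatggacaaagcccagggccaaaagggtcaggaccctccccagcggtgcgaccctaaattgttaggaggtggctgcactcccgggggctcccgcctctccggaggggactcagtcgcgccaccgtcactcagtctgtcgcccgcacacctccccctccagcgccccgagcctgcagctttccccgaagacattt
Cacng5 (chr11:107915056-107915305, minus strand): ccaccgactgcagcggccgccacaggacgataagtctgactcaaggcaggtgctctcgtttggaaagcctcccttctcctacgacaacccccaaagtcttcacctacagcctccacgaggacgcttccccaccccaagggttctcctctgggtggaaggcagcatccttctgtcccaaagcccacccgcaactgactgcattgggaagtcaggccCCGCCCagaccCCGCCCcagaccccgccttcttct
Hcn2 (chr10:79716384-79716633, plus strand): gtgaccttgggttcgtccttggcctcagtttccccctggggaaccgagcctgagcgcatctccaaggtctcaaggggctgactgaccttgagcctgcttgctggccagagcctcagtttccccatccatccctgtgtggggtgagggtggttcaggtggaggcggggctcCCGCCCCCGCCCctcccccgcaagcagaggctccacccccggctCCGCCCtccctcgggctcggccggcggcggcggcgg
These windows held 4, 0, 2 and 3 GC boxes, in that order, and their G+C content was 80.0%, 62.4%, 62.0% and 70.4%. In the 300-base windows from 250 bases before to 50 after the start, 32 of the 44 members had a RefSeq entry. A GC box was found in 15 of them (46.9%), against 35.7% of all 32851 promoters of the table. The TATA box was found in 1 of 32 (3.12%, Cacna1d) against 13.6% of all promoters, the E-box CANNTG in 22 of 32 (68.8%) against 72.3%, and the cyclic AMP response element TGACGTCA in 0 of 32 against 1.79%. Motifs were searched on both strands, and a match describes letters only, not a bound site. Members that were higher in Il-17rb-Cre libraries included promoters with 6 GC boxes (Cacna2d3 and Cacnb4) and with none (Scn1a, Scn2a, Scn2b, Scn8a, Cacna1i, Cacng2 and Cacng3).

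Summed over all 44 genes, the channels had a larger share of the RNA in the Il-17rb-Cre libraries. They took 0.306%, 0.366% and 0.334% of all counts there, against 0.0598%, 0.0986% and 0.148% in Il-17ra-Cre and 0.138%, 0.113%, 0.150% and 0.107% in Il-17rc-Cre libraries. All 3 Il-17rb-Cre libraries lie above all 7 others. In these bulk pull-downs, fewer cells of a type and less RNA per cell cannot be told apart. Against Il-17ra-Cre, 16 of the 40 tested members were higher (40%) and 1 was lower (2.5%), beside 16.4% of all tested genes higher and 24.4% lower (edgeR quasi-likelihood test, Benjamini-Hochberg adjusted p under 0.05). Their median log2 fold change was 1.14, beside -0.09 for all genes tested. Against Il-17rc-Cre, 16 were higher and 1 lower, beside 17.7% and 21.9% of all genes, with a median of 1.13 beside 0.02. Both comparisons use the same 3 Il-17rb-Cre libraries, so they are not independent of each other. Between Il-17ra-Cre and Il-17rc-Cre, 1 member was higher (Hcn2) and 0 were lower, beside 1.38% and 0.798% of all genes. In either direction, 40.7%, 39.7% and 2.18% of all genes were called in the 3 comparisons. The median of the members there was -0.05, beside 0.03 for all genes. At an unadjusted p under 0.05, 2 of 40 members were higher and 3 lower in that comparison, beside 10.8% and 7.59% of all genes at the same p. There DESeq2 called 1 member higher and 1 lower, beside 4.82% and 5.53% of all genes. In limma voom 2 members were higher and 4 lower, beside 13.4% and 9.18% of all genes.

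Without Il-17ra-Cre replicates 1 and 2, which leaves 1 library in that group whose spread is then assumed to be that of the others, the median of the members against Il-17ra-Cre was 0.74 and 9 of 42 were higher and 2 lower, beside 6.4% and 11.9% of all genes in that fit. Scn1a, Scn2a, Scn2b, Cacna1b, Cacna1g, Cacna1i and Cacna2d3 were then no longer called. Their log2 fold changes in that fit were 1.33, 0.65, 0.59, 1.16, 0.75, 0.78 and 1.15, in that order. Without Il-17rc-Cre replicates 1 and 3, 12 of 42 members were higher and 1 lower against Il-17rc-Cre, beside 11% and 18.3% of all genes in that fit. Every Il-17rb-Cre library lay above every Il-17ra-Cre library for 23 of 40 members and below for 1, beside 24.6% and 29.2% of all genes. Against Il-17rc-Cre the counts were 22 and 4, beside 27.5% and 25.5%. Between Il-17ra-Cre and Il-17rc-Cre they were 1 (Hcn2) and 1 (Cacng8), beside 7.92% and 6.65%.

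**Figure D1:**
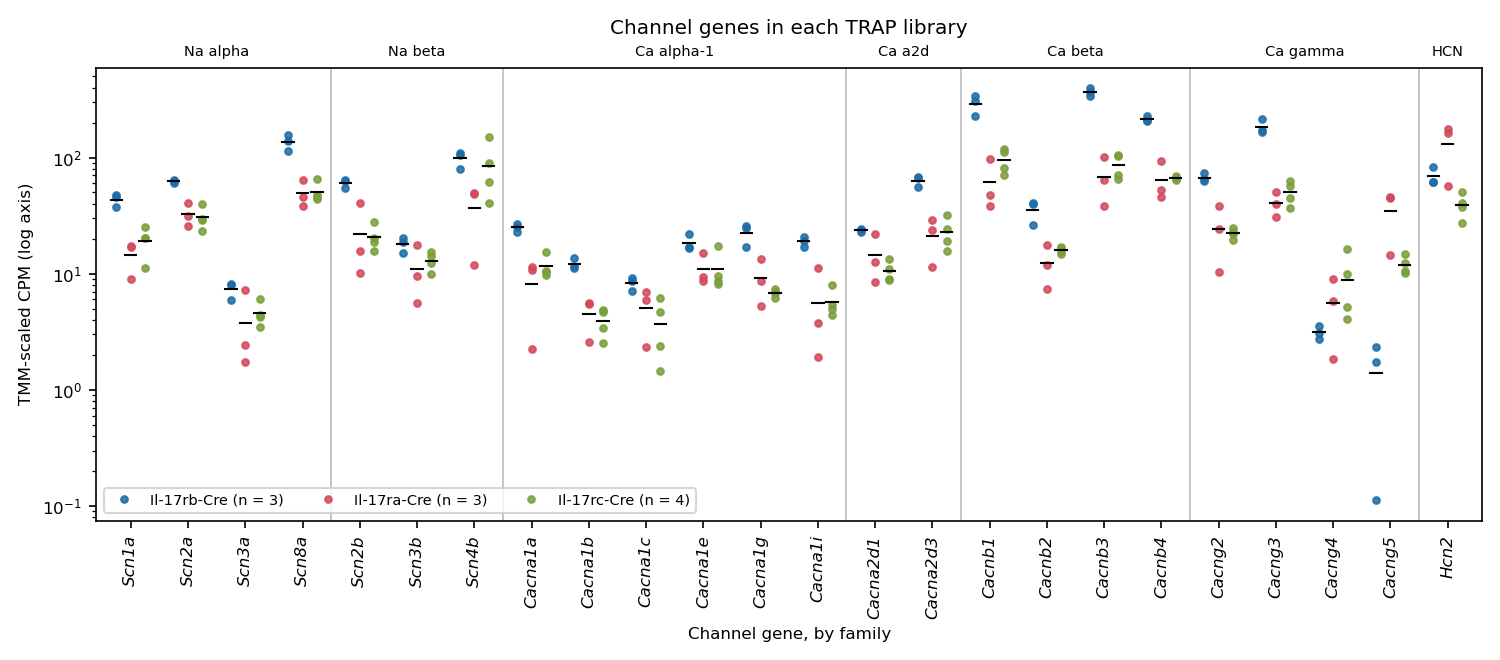
TMM-scaled CPM on a log axis for the channel genes given in every library, ordered by family; each point is 1 library, coloured by Cre driver, and each bar is the group mean. Most genes sit higher in the Il-17rb-Cre libraries, while Cacng5 lies at 0.113 to 2.32 CPM there, below the other groups.

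The markers of other cell types moved with the same groups. In summed CPM, the 12 pan-neuronal markers came to between 17702 and 18238 in Il-17rb-Cre, between 5405 and 6748 in Il-17ra-Cre and between 4412 and 5312 in Il-17rc-Cre libraries. Of them, 10 were higher and 1 lower (Tubb3) against Il-17ra-Cre and 10 were higher against Il-17rc-Cre. The 12 excitatory neuron markers, led by Nrgn and Slc17a7, summed to 18209 to 21205, 1645 to 6853 and 2325 to 3704 CPM in the same order of groups, and 11 and 12 of them were higher. The 12 inhibitory markers, led by Sst and Npy, summed to 1369 to 1406, 235 to 416 and 637 to 791 CPM, with 6 higher and 1 lower against Il-17ra-Cre and 3 higher and 2 lower against Il-17rc-Cre. The 10 astrocyte markers, led by Gfap, summed to 373 to 399.9 CPM in Il-17rb-Cre, 6472 to 11129 CPM in Il-17ra-Cre and 10072 to 11868 CPM in Il-17rc-Cre libraries, and all 10 were lower in both comparisons. The 10 oligodendrocyte markers, led by Mbp, summed to 1036 to 1182, 5327 to 44611 and 1053 to 3983 CPM, with 10 lower against Il-17ra-Cre and 1 lower against Il-17rc-Cre. Of the microglial markers 10 and 6 of 10 were lower, of the endothelial 2 and 5 of 8, of the mural 7 and 8 of 8, and of the oligodendrocyte precursor markers 7 and 5 of 8. Only Itgam, in Il-17rb-Cre, was at 0 in a whole group. The part of cell type in the channel results was not tested.

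The 3 main sodium pore genes of adult cortex were higher in the Il-17rb-Cre libraries than in either other group: Scn1a, best known in fast-spiking interneurons, Scn2a, found in axons of excitatory neurons, and Scn8a, the main pore of the axon initial segment and the nodes of Ranvier. Scn1a was at 37.6, 47.1 and 45.3 CPM in Il-17rb-Cre, 8.95, 16.9 and 17.4 CPM in Il-17ra-Cre and 20.2, 25.03, 20.2 and 11.1 CPM in Il-17rc-Cre. Scn2a was at 63.2, 64.7 and 60.1 CPM in Il-17rb-Cre, 25.7, 31.2 and 40.4 CPM in Il-17ra-Cre and 29.8, 39.8, 28.9 and 23.3 CPM in Il-17rc-Cre. Scn8a (ENSMUSG00000023033, GRCm38 chromosome 15, 100869858 to 101045938) was at 114, 157 and 139 CPM in Il-17rb-Cre, 38.3, 45.8 and 63.8 CPM in Il-17ra-Cre and 46.01, 65.5, 47.9 and 44.1 CPM in Il-17rc-Cre. In all of these the 3 Il-17rb-Cre libraries lay above the 7 others, and the Il-17ra-Cre and Il-17rc-Cre values overlapped. Against Il-17ra-Cre the log2 fold changes (± SE) were 1.59 ± 0.33, 0.95 ± 0.22 and 1.47 ± 0.23 for Scn1a, Scn2a and Scn8a (edgeR adjusted p = 0.00352, 0.00691 and 0.00086). Against Il-17rc-Cre they were 1.18 ± 0.30, 1.04 ± 0.20 and 1.43 ± 0.21 (edgeR adjusted p = 0.0102, 0.00279 and 0.000574). Without Il-17rc-Cre replicates 1 and 3, Scn1a against Il-17rc-Cre was 1.22 and no longer passed (edgeR adjusted p = 0.0542).

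Scn3a, a pore gene most abundant before birth, was at 7.996, 8.17 and 5.92 CPM in Il-17rb-Cre, 1.73, 2.41 and 7.18 CPM in Il-17ra-Cre and 6.05, 4.27, 4.42 and 3.48 CPM in Il-17rc-Cre. The groups overlapped through Il-17ra-Cre replicate 3 and Il-17rc-Cre replicate 1, and neither difference passed, at 0.95 ± 0.49 against Il-17ra-Cre and 0.69 ± 0.45 against Il-17rc-Cre (edgeR adjusted p = 0.145 and 0.247). Without the Il-17ra-Cre replicate the first was 1.83 and passed (edgeR adjusted p = 0.00218). In limma voom the first was 1.48 and passed too (adjusted p = 0.0046). Scn9a, a pore gene of sensory neurons, averaged 1.41 ± 0.511 CPM in Il-17rb-Cre, 0.368 ± 0.259 CPM in Il-17ra-Cre and 0.471 ± 0.225 CPM in Il-17rc-Cre libraries, with no overlap of Il-17rb-Cre with the others and no call (edgeR adjusted p = 0.058 and 0.0813). Scn7a, a sodium-sensing relative of these pores, stayed under 1 CPM in every library. The muscle pore Scn4a and the sensory neuron pores Scn10a and Scn11a had 14, 52 and 16 reads over all 10 libraries and were not tested.

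Levels per length were highest for Scn8a among the pores, at 8.67 ± 1.37 CPM per kb of exon in Il-17rb-Cre, 3.13 ± 0.832 in Il-17ra-Cre and 3.23 ± 0.626 in Il-17rc-Cre libraries (mean ± SD). As shares of the summed alpha subunit level per length, Scn8a held 47.3 ± 2.87% in Il-17rb-Cre, 42.4 ± 2.61% in Il-17ra-Cre and 41.8 ± 3.82% in Il-17rc-Cre libraries. Scn2a held 27.1 ± 2.72%, 34.8 ± 2.33% and 30.7 ± 0.553%, and Scn1a 21.3 ± 0.958%, 17.3 ± 3.07% and 21.8 ± 3.37%, in the same order of groups. The means thus fell in the order Scn8a, Scn2a, Scn1a in every group. Scn1a, Scn2a, Scn3a, Scn7a and Scn9a lie in 1 stretch of chromosome 2 between 65457118 and 66784914, in the order Scn3a, Scn2a, Scn1a, Scn9a, Scn7a. In this order of members, the 2 called genes are next to each other with uncalled members on both sides. Other genes of the stretch were not examined.

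The sodium channel beta subunits are adhesion-type proteins that set the gating of the pore. Scn2b, a subunit that is disulfide-bound to the pore, was higher in Il-17rb-Cre in both comparisons. It was at 62.5, 64.3 and 54.3 CPM in Il-17rb-Cre, 10.1, 15.8 and 40.5 CPM in Il-17ra-Cre and 20.4, 18.6, 28.1 and 15.7 CPM in Il-17rc-Cre. Every Il-17rb-Cre library exceeded every other library. The log2 fold change was 1.44 ± 0.44 against Il-17ra-Cre and 1.54 ± 0.40 against Il-17rc-Cre (edgeR adjusted p = 0.0236 and 0.012). The call of Scn2b against Il-17ra-Cre ended without any 1 of Il-17ra-Cre replicates 1 or 2 or Il-17rb-Cre replicates 1 or 2, where the log2 fold changes were 1.11, 1.25, 1.43 and 1.40 (edgeR adjusted p = 0.0547, 0.0834, 0.054 and 0.0583). In the fit of only Il-17rb-Cre and Il-17ra-Cre, Scn2b was 1.47 and missed the threshold (edgeR adjusted p = 0.0503). Without Il-17ra-Cre replicate 3 it was 2.22 (edgeR adjusted p = 0.000252), and without Il-17ra-Cre replicates 1 and 2 together it was 0.59.

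Scn3b and Scn4b did not pass in any comparison in the fit of all libraries. Scn3b was at 15.1, 20.2 and 18.9 CPM in Il-17rb-Cre, 5.58, 9.53 and 17.6 CPM in Il-17ra-Cre and 14.1, 12.4, 15.4 and 9.86 CPM in Il-17rc-Cre. Scn4b (chromosome 9, 45138395 to 45154152), whose cytoplasmic tail is linked to resurgent sodium current and which is abundant in striatal projection neurons, was at 80.04, 108 and 106 CPM in Il-17rb-Cre, 12, 48.9 and 49.4 CPM in Il-17ra-Cre and 89.8, 40.4, 149 and 61.8 CPM in Il-17rc-Cre. Its Il-17rb-Cre libraries lay above all Il-17ra-Cre libraries (1.42 ± 0.55, edgeR adjusted p = 0.064) but within the range of the Il-17rc-Cre libraries (0.20 ± 0.50, edgeR adjusted p = 0.779). The 2 higher Il-17rc-Cre libraries are replicates 1 and 3, whose striatal marker sums were 649 and 1256 CPM. The 6 striatal markers, led by Ppp1r1b, summed to 436 to 497 CPM in Il-17rb-Cre, 49.1 to 277 CPM in Il-17ra-Cre and 125 to 1256 CPM in Il-17rc-Cre libraries, none at 0, and the part of striatal RNA in Scn4b was not tested. Scn4b against Il-17ra-Cre passed without Il-17rc-Cre replicate 2 or 3 (edgeR adjusted p = 0.0492 and 0.0461). It also passed there in DESeq2 and limma voom (adjusted p = 0.0204 and 0.0182). With upper quartile scaling and the filter at 1 CPM in 3 libraries it passed too (edgeR adjusted p = 0.0482 and 0.0471). Scn3b passed against Il-17ra-Cre without Il-17ra-Cre replicate 3, at 1.26 (edgeR adjusted p = 0.0068), and in limma voom, at 1.07 (adjusted p = 0.00432). Scn2b and Scn4b are near neighbours on chromosome 9, where Scn2b ends at 45130070.

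Among the calcium channel pores, the N-type gene Cacna1b and the P/Q-type gene Cacna1a serve transmitter release, and the T-type genes Cacna1g and Cacna1i open at low voltage and support burst firing. Cacna1a was at 22.9, 26.96 and 25.1 CPM in Il-17rb-Cre, 2.26, 11.4 and 10.8 CPM in Il-17ra-Cre and 10.4, 15.5, 10.5 and 9.70 CPM in Il-17rc-Cre. Cacna1b was at 11.1, 13.7 and 11.7 CPM in Il-17rb-Cre, 2.56, 5.55 and 5.49 CPM in Il-17ra-Cre and 3.42, 4.90, 2.54 and 4.67 CPM in Il-17rc-Cre. No Il-17rb-Cre library overlapped the others in either gene. Cacna1b was higher in both comparisons, by 1.42 ± 0.36 against Il-17ra-Cre and 1.64 ± 0.33 against Il-17rc-Cre (edgeR adjusted p = 0.0104 and 0.00311). Cacna1a was higher against Il-17ra-Cre (1.61 ± 0.48, edgeR adjusted p = 0.022), while its value of 1.11 ± 0.44 against Il-17rc-Cre missed the threshold (edgeR adjusted p = 0.0658). Without Il-17rb-Cre replicate 2 the first gave an adjusted p of 0.0533, and in the fit of only its 2 groups 0.0548 (edgeR). The second gave 0.00262 without Il-17ra-Cre replicate 1, 0.00341 in the fit of only its 2 groups and 0.0457 with upper quartile scaling (edgeR adjusted p). DESeq2 and limma voom also called the second (adjusted p = 0.0464 and 0.00305). Gm16183 overlaps 3.81% of the exonic length of Cacna1a, and without strand its reads cannot be told apart.

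Of the 3 T-type pores, 2 were higher in Il-17rb-Cre in both comparisons. Cacna1g was at 17.02, 24.6 and 25.5 CPM in Il-17rb-Cre, 5.26, 8.68 and 13.4 CPM in Il-17ra-Cre and 7.39, 6.89, 6.85 and 6.22 CPM in Il-17rc-Cre. Cacna1i (chromosome 15, 80287238 to 80398279), whose promoter is shown above, was at 20.9, 17.03 and 19.2 CPM in Il-17rb-Cre, 1.91, 3.77 and 11.2 CPM in Il-17ra-Cre and 4.44, 5.38, 8.06 and 4.93 CPM in Il-17rc-Cre. Both were higher in every Il-17rb-Cre library than in any other. The log2 fold changes were 1.29 ± 0.32 and 1.71 ± 0.29 for Cacna1g (edgeR adjusted p = 0.00886 and 0.00124) and 1.75 ± 0.54 and 1.74 ± 0.49 for Cacna1i (edgeR adjusted p = 0.0252 and 0.0177), against Il-17ra-Cre and Il-17rc-Cre. Cacna1i lost its call against Il-17ra-Cre without Il-17ra-Cre replicate 2 or Il-17rb-Cre replicate 1 or 3, at 1.53, 1.70 and 1.75 (edgeR adjusted p = 0.0853, 0.0601 and 0.0548), and against Il-17rc-Cre without Il-17rb-Cre replicate 1 or 3 or without Il-17rc-Cre replicates 1 and 3 together at 1.62, 1.67 and 1.84 (edgeR adjusted p = 0.0582, 0.0523 and 0.0667). In the fit of only Il-17rb-Cre and Il-17ra-Cre, Cacna1i was 1.77 and missed the threshold (edgeR adjusted p = 0.0553). Without Il-17ra-Cre replicate 3 it was 2.74 against Il-17ra-Cre (edgeR adjusted p = 0.00038), and without Il-17ra-Cre replicates 1 and 2 together it was 0.78. Cacna1h, the remaining T-type pore, averaged 3.45 ± 1.05 CPM in Il-17rb-Cre, 5.77 ± 5.18 CPM in Il-17ra-Cre and 4.67 ± 2.46 CPM in Il-17rc-Cre libraries, with log2 fold changes below 0 in both comparisons and no call (edgeR adjusted p = 0.452 and 0.644). It made up 3.69 ± 0.913% of the alpha-1 level per length in Il-17rb-Cre, 13.1 ± 9.39% in Il-17ra-Cre and 11.5 ± 5.54% in Il-17rc-Cre libraries.

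The R-type pore Cacna1e and the L-type pore Cacna1c, which couples calcium entry to transcription, did not pass in the fit of all libraries. In limma voom, Cacna1e passed against Il-17ra-Cre and Il-17rc-Cre (adjusted p = 0.00653 and 0.00168) and Cacna1c against Il-17rc-Cre (adjusted p = 0.0135). Against Il-17rc-Cre, Cacna1e passed with upper quartile scaling (edgeR adjusted p = 0.0438) and Cacna1c with the block by library name (edgeR adjusted p = 0.0415). Cacna1e was at 16.7, 16.96 and 21.9 CPM in Il-17rb-Cre, 8.63, 9.37 and 14.98 CPM in Il-17ra-Cre and 9.61, 17.3, 8.58 and 8.09 CPM in Il-17rc-Cre. Cacna1c was at 7.06, 9.13 and 8.73 CPM in Il-17rb-Cre, 2.32, 5.94 and 6.93 CPM in Il-17ra-Cre and 2.37, 4.70, 6.18 and 1.46 CPM in Il-17rc-Cre. For Cacna1e, Il-17rc-Cre replicate 2 reached into the Il-17rb-Cre range, and without that library the difference from Il-17rc-Cre was 1.08 and passed (edgeR adjusted p = 0.0104). Cacna1e also passed against Il-17ra-Cre without Il-17rc-Cre replicate 2 (edgeR adjusted p = 0.0415) or without Il-17ra-Cre replicate 3 (1.04, edgeR adjusted p = 0.0328), and against Il-17rc-Cre without that Il-17ra-Cre library (edgeR adjusted p = 0.0488). For Cacna1c no Il-17rb-Cre library overlapped the others, but differences of 0.71 ± 0.54 and 1.17 ± 0.50 did not pass (edgeR adjusted p = 0.325 and 0.0889), the second doing so without Il-17rc-Cre replicate 3 (edgeR adjusted p = 0.0423). The other L-type pores were low: Cacna1d was between 1.23 and 5.92 CPM in all libraries, and the retinal pore Cacna1f at 1.05 CPM or less. The skeletal muscle pore Cacna1s had 40 reads in all and was not tested.

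All 4 genes of the calcium channel beta subunits, which bind the alpha-1 pore inside the cell and set its surface number and gating, were higher in Il-17rb-Cre in both comparisons. Cacnb1 was at 228, 337 and 305 CPM in Il-17rb-Cre, 38.1, 47.6 and 97.8 CPM in Il-17ra-Cre and 111, 71.2, 118 and 80.6 CPM in Il-17rc-Cre. Cacnb3 (ENSMUSG00000003352, chromosome 15, 98630840 to 98644529) was at 339.6, 393 and 369 CPM in Il-17rb-Cre, 38.5, 64.6 and 100.5 CPM in Il-17ra-Cre and 106, 71.3, 102 and 65.4 CPM in Il-17rc-Cre. The lowest Il-17rb-Cre library was above the highest of the other 7 in both genes. Cacnb4, the subunit mutated in lethargic mice, was at 205, 227 and 212 CPM in Il-17rb-Cre, 45.5, 52.2 and 94.05 CPM in Il-17ra-Cre and 68.9, 63.6, 66.4 and 66.5 CPM in Il-17rc-Cre. Cacnb2, the main beta subunit of heart, was at 26.2, 40.5 and 39.6 CPM in Il-17rb-Cre, 7.33, 11.9 and 17.6 CPM in Il-17ra-Cre and 15.7, 17.1, 14.7 and 16.5 CPM in Il-17rc-Cre. These also showed no overlap of Il-17rb-Cre with the others. Against Il-17ra-Cre the log2 fold changes were 2.24 ± 0.36, 1.53 ± 0.30, 2.44 ± 0.33 and 1.75 ± 0.24 for Cacnb1 to Cacnb4 (edgeR adjusted p = 0.000906, 0.00278, 0.00038 and 0.000424). Against Il-17rc-Cre they were 1.60 ± 0.32, 1.15 ± 0.27, 2.09 ± 0.30 and 1.69 ± 0.22 (edgeR adjusted p = 0.00308, 0.00774, 0.000431 and 0.000266).

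The beta subunit calls held when any 1 library was left out, and of all alternatives run the only loss was that of Cacnb2 against Il-17rc-Cre without Il-17rc-Cre replicates 1 and 3 together (1.03, edgeR adjusted p = 0.0695). Per length, Cacnb3 was the most abundant beta subunit in each group, at 91.6 ± 6.70, 16.9 ± 7.75 and 21.5 ± 5.20 CPM per kb in Il-17rb-Cre, Il-17ra-Cre and Il-17rc-Cre libraries. Its share of the beta subunit level per length was 50.4 ± 2.21%, 43.9 ± 3.97% and 41.8 ± 2.58%, followed by Cacnb1 with 34.9 ± 2.99%, 34.7 ± 2.82% and 40.9 ± 2.47%. The shares of Cacnb3 and Cacnb1 lay within their SDs of each other in Il-17rc-Cre libraries. Cacnb4 held 13.2 ± 0.962%, 19.0 ± 2.19% and 14.9 ± 2.65%. The transcript A430018G15Rik overlaps 15.99% of the exonic length of Cacnb4, and predicted genes overlap 7.32% of that of Cacnb2.

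Of the alpha-2-delta subunits, Cacna2d3 was higher in both comparisons and Cacna2d1, a binding site of gabapentin, in 1 of them. Cacna2d3 (ENSMUSG00000021991, chromosome 14, 28904943 to 29721864) was at 56.1, 66.5 and 67.4 CPM in Il-17rb-Cre, 11.5, 23.5 and 28.8 CPM in Il-17ra-Cre and 24.2, 15.6, 32.04 and 19.03 CPM in Il-17rc-Cre. Cacna2d1 was at 22.97, 23.6 and 24.3 CPM in Il-17rb-Cre, 8.52, 12.7 and 21.9 CPM in Il-17ra-Cre and 8.87, 11.1, 9.09 and 13.4 CPM in Il-17rc-Cre. Il-17rb-Cre libraries lay above all others in both genes, for Cacna2d1 only narrowly above Il-17ra-Cre replicate 3. Cacna2d3 was higher by 1.57 ± 0.35 against Il-17ra-Cre and 1.48 ± 0.32 against Il-17rc-Cre (edgeR adjusted p = 0.00515 and 0.00442). Cacna2d1 was higher by 1.15 ± 0.29 against Il-17rc-Cre (edgeR adjusted p = 0.0106) and was at 0.71 ± 0.32 against Il-17ra-Cre, which did not pass (edgeR adjusted p = 0.096). It passed there without Il-17ra-Cre replicate 3, at 1.16 (edgeR adjusted p = 0.00467), and in limma voom, at 0.97 (adjusted p = 0.00195). Against Il-17rc-Cre it missed without Il-17rc-Cre replicates 1 and 3 together (0.90, edgeR adjusted p = 0.102). Cacna2d2, the second gabapentin-binding subunit, and Cacna2d4, known from retina, stayed between 1.08 and 5.04 CPM with no call.

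**Figure D2:**
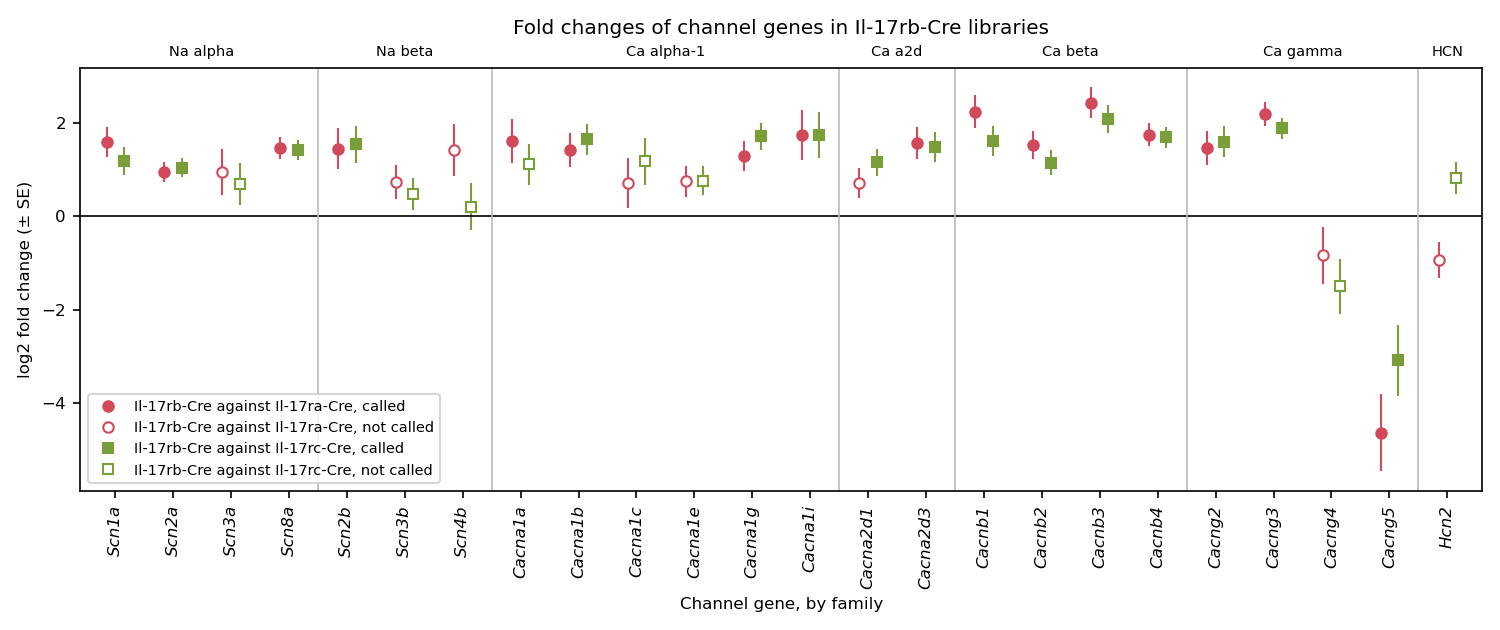
Log2 fold changes with their standard errors for the same genes, for Il-17rb-Cre against Il-17ra-Cre and against Il-17rc-Cre; filled points passed the edgeR test. All 4 Cacnb genes lie above 0 and are filled in both comparisons, Cacng5 lies lowest at -4.64 and -3.09, and Hcn2 is filled in neither.

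The gamma genes were called in both directions. Cacng3 and Cacng2 (stargazin), TARPs of cortical neurons, were higher in Il-17rb-Cre, whereas Cacng5, a TARP also described in Bergmann glia of the mouse cerebellum, was the only member called lower. Cacng2 was at 73.3, 64.9 and 62.8 CPM in Il-17rb-Cre, 10.4, 24.3 and 37.9 CPM in Il-17ra-Cre and 22.8, 21.9, 24.8 and 19.4 CPM in Il-17rc-Cre. Cacng3 (ENSMUSG00000066189, chromosome 7, 122670492 to 122769393) was at 167, 174 and 213 CPM in Il-17rb-Cre, 30.97, 39.7 and 50.7 CPM in Il-17ra-Cre and 56.7, 36.6, 62.5 and 44.9 CPM in Il-17rc-Cre. Both had all Il-17rb-Cre libraries above all others. Cacng2 was higher by 1.47 ± 0.36 and 1.59 ± 0.33 against Il-17ra-Cre and Il-17rc-Cre (edgeR adjusted p = 0.00924 and 0.00389), and Cacng3 by 2.19 ± 0.25 and 1.88 ± 0.22 (edgeR adjusted p = 0.000129 and 0.000144). These calls held without any 1 library and without Il-17ra-Cre replicates 1 and 2 or Il-17rc-Cre replicates 1 and 3 together. The transcript A730060N03Rik overlaps 5.86% of the exonic length of Cacng2.

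Cacng5 (ENSMUSG00000040373, chromosome 11, 107874605 to 107915055), whose promoter is shown above, was at 0.113, 2.32 and 1.73 CPM in Il-17rb-Cre, 45.5, 44.9 and 14.4 CPM in Il-17ra-Cre and 10.5, 10.2, 14.8 and 12.4 CPM in Il-17rc-Cre. Its raw counts were 6, 174 and 121 in Il-17rb-Cre, 1687, 1693 and 2451 in Il-17ra-Cre and 508, 736, 1110 and 873 in Il-17rc-Cre libraries. All Il-17rb-Cre values were below all others, and within Il-17ra-Cre replicates 1 and 2 were about equal and above replicate 3. The log2 fold change was -4.64 ± 0.83 against Il-17ra-Cre and -3.09 ± 0.76 against Il-17rc-Cre (edgeR adjusted p = 0.00171 and 0.00904). Leaving out 1 library at a time, these ran from -5.21 to -4.10 and from -3.72 to -2.61, the extremes being without Il-17rb-Cre replicate 2 and replicate 1, and without Il-17ra-Cre replicates 1 and 2 together the first was -3.33 (edgeR adjusted p = 0.0398). Between Il-17ra-Cre and Il-17rc-Cre the value was 1.54 ± 0.66, with overlapping libraries and no call (edgeR adjusted p = 0.248). Beside it stand the glial markers: astrocyte sums of 373 to 399.9 CPM in Il-17rb-Cre, 6472 to 11129 CPM in Il-17ra-Cre and 10072 to 11868 CPM in Il-17rc-Cre, and oligodendrocyte precursor sums of 55.3 to 81.0, 737 to 2227 and 628 to 799.8 CPM, with no marker at 0. The part of these cell types in the level of Cacng5 was not tested.

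A further 3 gamma genes lay below all Il-17rc-Cre libraries, overlapped Il-17ra-Cre and did not pass in the fit of all libraries. Cacng4, Cacng6 and Cacng8 passed as lower against Il-17rc-Cre in DESeq2 (adjusted p = 0.0158, 0.0233 and 0.00999). They also passed in limma voom (adjusted p = 0.00712, 0.0156 and 0.000836) and the 2-group fit (edgeR adjusted p = 0.0262, 0.013 and 0.00904). In those fits 26.8%, 26.2% and 27.2% of all genes were lower. Cacng4, a TARP of developing brain and glia, was at 3.55, 2.74 and 3.10 CPM in Il-17rb-Cre, 1.83, 5.81 and 9.03 CPM in Il-17ra-Cre and 9.92, 4.04, 16.2 and 5.13 CPM in Il-17rc-Cre. Its Il-17rb-Cre libraries were below all Il-17rc-Cre libraries (-1.50 ± 0.59, edgeR adjusted p = 0.0683) and overlapped Il-17ra-Cre (-0.84 ± 0.61, edgeR adjusted p = 0.303). It passed against Il-17rc-Cre without Il-17ra-Cre replicate 1 or Il-17rc-Cre replicate 2 (edgeR adjusted p = 0.0308 and 0.0428). Cacng8, a TARP best known in hippocampus, averaged 1.29 ± 0.232 CPM in Il-17rb-Cre, 1.09 ± 0.726 CPM in Il-17ra-Cre and 3.05 ± 0.667 CPM in Il-17rc-Cre libraries, and both first groups lay below all Il-17rc-Cre libraries (-1.24 ± 0.46, edgeR adjusted p = 0.0563, and -1.46 ± 0.47, edgeR adjusted p = 0.127). The first of these passed without Il-17ra-Cre replicate 1 or 3 (edgeR adjusted p = 0.0284 and 0.0163) and the second without Il-17ra-Cre replicate 3 (-2.16, edgeR adjusted p = 0.0133). Cacng6, a muscle calcium channel subunit, averaged 0.457 ± 0.195, 1.40 ± 1.49 and 1.71 ± 0.655 CPM in the same order, with Il-17rb-Cre below all Il-17rc-Cre libraries (-1.89 ± 0.78, edgeR adjusted p = 0.0795). It passed there without Il-17ra-Cre replicate 1 or 3 (edgeR adjusted p = 0.0288 and 0.0298), and against Il-17ra-Cre without Il-17ra-Cre replicate 1 (-2.10, edgeR adjusted p = 0.0384). Cacng7 stayed between 0.267 and 1.52 CPM, and the muscle subunit Cacng1 had no read in Il-17ra-Cre and at most 0.787 CPM elsewhere, so no fold is given for it.

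As a description of levels per length, with no test, the make-up of the gamma family was as follows. Cacng3 held 81.7 ± 2.89% of the family in Il-17rb-Cre, 46.6 ± 6.06% in Il-17ra-Cre and 59.4 ± 1.93% in Il-17rc-Cre libraries. Cacng5 held 0.441 ± 0.377%, 30.7 ± 17.8% and 10.4 ± 1.63% in the same order, and its Il-17ra-Cre share ran between 11.0% and 45.6%. Cacng2 held 15.1 ± 2.45%, 13.6 ± 6.45% and 13.6 ± 2.53%. Cacng4 held 1.08 ± 0.190%, 4.77 ± 2.73% and 7.61 ± 3.21%. Cacng5, Cacng4 and Cacng1 are neighbours on chromosome 11 between 107703218 and 107915055, and Cacng6, Cacng7 and Cacng8 are neighbours on chromosome 7 between 3332955 and 3435667.

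**Figure D3:**
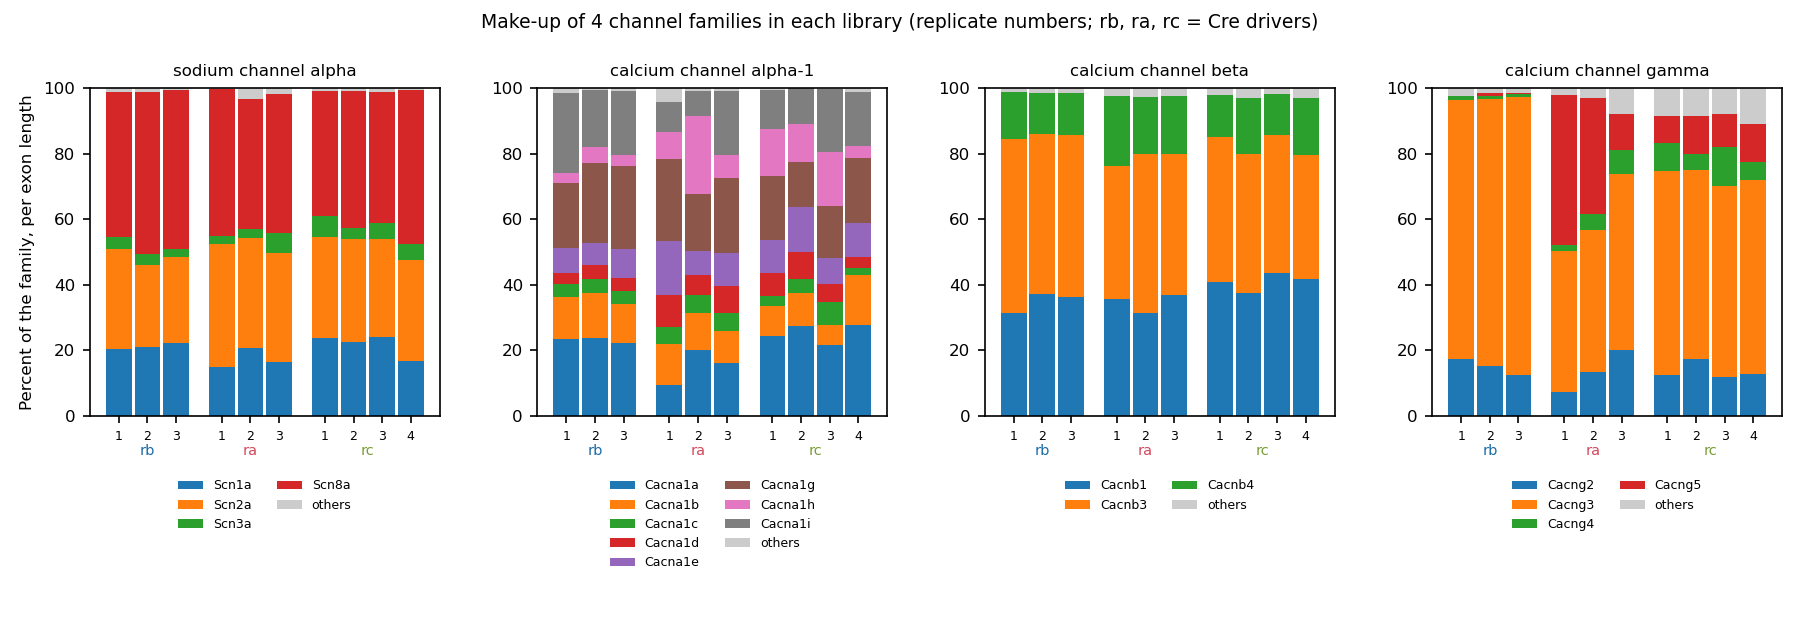
Stacked shares, in percent, of each subunit in its family's summed level per exon length, 1 bar per library with the replicate number below it. Cacng5 takes up to 45.6% of the gamma family in an Il-17ra-Cre library and at most 0.787% in an Il-17rb-Cre library.

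The HCN genes form the pacemaker current. Hcn2, a subunit of neurons throughout the brain that is also present in oligodendrocytes, was the only member called between Il-17ra-Cre and Il-17rc-Cre. Hcn2 (ENSMUSG00000020331, chromosome 10, 79716634 to 79736108), whose promoter is shown above, was at 61.6, 83.5 and 61.3 CPM in Il-17rb-Cre, 162, 177 and 56.3 CPM in Il-17ra-Cre and 37.6, 50.6, 40.3 and 27.4 CPM in Il-17rc-Cre. Hcn2 was high in Il-17ra-Cre replicates 1 and 2, while replicate 3 lay below all Il-17rb-Cre libraries. Against Il-17rc-Cre, Hcn2 in Il-17ra-Cre was higher by 1.76 ± 0.35 with no overlap (edgeR adjusted p = 0.0426). For Il-17rb-Cre the values were -0.94 ± 0.38 against Il-17ra-Cre and 0.82 ± 0.35 against Il-17rc-Cre, neither passing (edgeR adjusted p = 0.0742 and 0.0891). At an unadjusted p under 0.05, Hcn2 in Il-17rb-Cre passed as lower against Il-17ra-Cre and as higher against Il-17rc-Cre. DESeq2 called it lower (-0.97, adjusted p = 0.04) against Il-17ra-Cre, and limma voom called it lower there and higher against Il-17rc-Cre.

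The Hcn2 call between Il-17ra-Cre and Il-17rc-Cre lies near the threshold, and its size moved most with the Il-17ra-Cre libraries. It was lost without Il-17ra-Cre replicate 1 (1.51, edgeR adjusted p = 0.16) or 2 (1.45, edgeR adjusted p = 0.162). At 1.70 to 1.71, it was lost without any 1 Il-17rb-Cre library (edgeR adjusted p = 0.0687, 0.0723 and 0.077). Those libraries are not compared here but enter the filter, the scaling and the shared spread. Without Il-17rc-Cre replicate 1, 3 or 4 it was lost at 1.74, 1.77 and 1.62 (edgeR adjusted p = 0.123, 0.125 and 0.0845). It was also lost with the replicate block (1.52, edgeR adjusted p = 0.122), with the block by library name (1.70, edgeR adjusted p = 0.187), in the fit of only these 2 groups (1.71, edgeR adjusted p = 0.0948) and without Il-17rc-Cre replicates 1 and 3 together (1.72, edgeR adjusted p = 0.309). In each of these fits at most 0.0614% of all genes were higher and 0.142% lower. The fit of all libraries called 1.38% and 0.798%. Without Il-17ra-Cre replicate 3 Hcn2 was 2.12 (edgeR adjusted p = 0.00114), beside 7.31% of all genes higher and 6.38% lower. Without Il-17ra-Cre replicates 1 and 2 together it was 0.46 (edgeR adjusted p = 0.566). Against Il-17ra-Cre, the Il-17rb-Cre value of Hcn2 was -1.30 and called without Il-17ra-Cre replicate 3 (edgeR adjusted p = 0.00192) and 0.30 without replicates 1 and 2 (edgeR adjusted p = 0.6). Hcn2 in Il-17rb-Cre against Il-17rc-Cre passed without Il-17ra-Cre replicate 3 (edgeR adjusted p = 0.0097). The oligodendrocyte markers, of which 9 of 10 were higher in Il-17ra-Cre than in Il-17rc-Cre, were at 44611, 30675 and 5327 CPM in Il-17ra-Cre replicates 1 to 3 and at 1247, 3983, 1053 and 2449 CPM in Il-17rc-Cre replicates 1 to 4. None of the 10 markers was at 0, and the part of oligodendrocyte RNA in Hcn2 was not tested.

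Per length, Hcn2 was the dominant subunit in every group, at 21.5 ± 3.98 CPM per kb in Il-17rb-Cre, 41.3 ± 20.6 in Il-17ra-Cre and 12.2 ± 2.98 in Il-17rc-Cre libraries. It held 87.4 ± 1.996%, 95.3 ± 5.07% and 87.6 ± 1.32% of the HCN level per length. Hcn3 averaged 5.25 ± 2.16, 2.68 ± 2.39 and 2.25 ± 1.25 CPM in the same order, and Pklr overlaps 17.1% of its exonic length. Hcn4, the pacemaker subunit of the sinoatrial node, was at 0.540 CPM or less in every library.

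**Figure D4:**
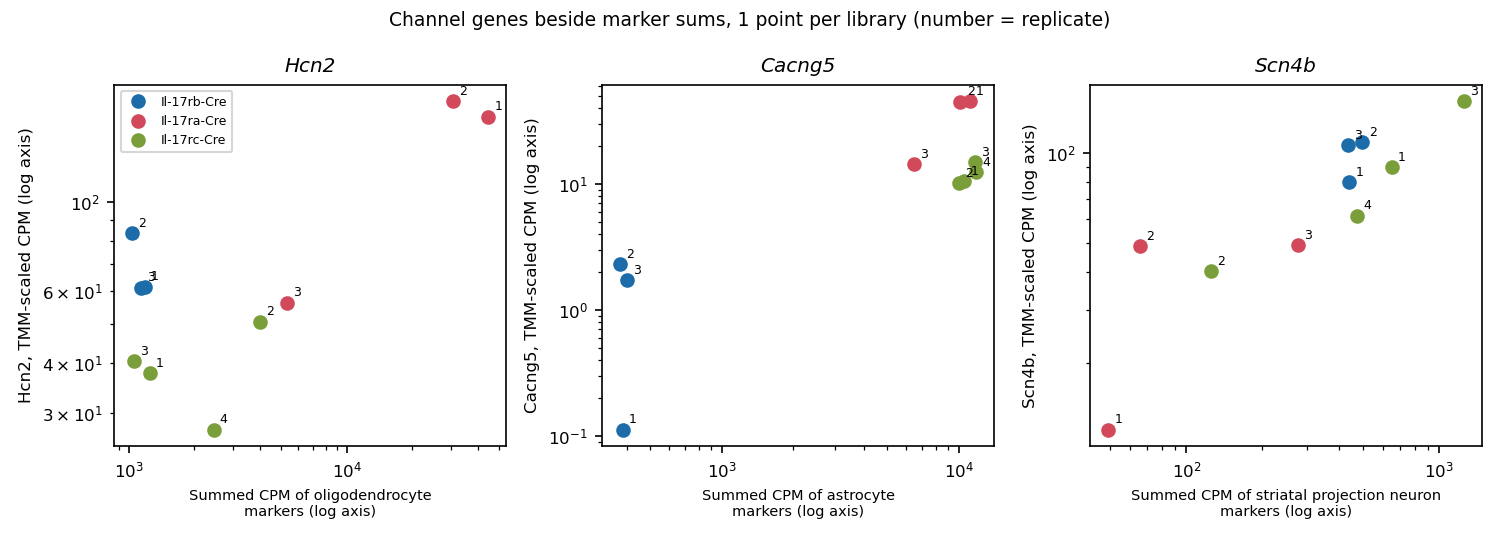
Hcn2 beside the summed oligodendrocyte markers, Cacng5 beside the summed astrocyte markers and Scn4b beside the summed striatal projection neuron markers, all in TMM-scaled CPM on log axes; each point is 1 library with its replicate number, coloured by driver. The 2 libraries with Hcn2 at 162 and 177 CPM are those with oligodendrocyte sums of 44611 and 30675 CPM.

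Of 27 genes listed as partners of these channels, 26 were matched and tested. Against Il-17ra-Cre 13 were higher and 4 lower, beside 16.4% and 24.4% of all genes, with a median log2 fold change of 0.99. Against Il-17rc-Cre 15 were higher and 3 lower, beside 17.7% and 21.9%, with a median of 1.01. Between Il-17ra-Cre and Il-17rc-Cre 2 were called, both higher, beside 1.38%, with a median of -0.05. At the top of the list by level stood Cabp1, a calcium-binding protein that modulates calcium channels, at 693, 732 and 686 CPM in Il-17rb-Cre, 34.3, 76.7 and 143 CPM in Il-17ra-Cre and 158, 86.96, 137 and 87.2 CPM in Il-17rc-Cre. Its log2 fold changes were 3.05 ± 0.46 and 2.58 ± 0.41 (edgeR adjusted p = 0.000674 and 0.000814), and all Il-17rb-Cre libraries lay above all others. Ank2, the ankyrin-B scaffold found in neurons and glia, went the other way, at 86.9, 80.5 and 88.1 CPM in Il-17rb-Cre, 341, 536 and 93.6 CPM in Il-17ra-Cre and 316, 231, 274 and 196 CPM in Il-17rc-Cre. It was lower by -1.92 ± 0.48 and -1.58 ± 0.46 (edgeR adjusted p = 0.01 and 0.0204), with Il-17ra-Cre replicate 3 close to the Il-17rb-Cre libraries. Without Il-17ra-Cre replicates 1 and 2 together the first was -0.12 (edgeR adjusted p = 0.815), and the second missed the threshold without any 1 Il-17rb-Cre library (edgeR adjusted p = 0.0594, 0.0639 and 0.0558). Nrcam, a cell adhesion partner of sodium channels at the node, ranged between 48.9 and 517 CPM and was not called.

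Pex5l encodes the HCN auxiliary subunit known as TRIP8b, and like Hcn2 it was highest in Il-17ra-Cre replicates 1 and 2. It was at 117, 128 and 113 CPM in Il-17rb-Cre, 444, 302 and 92.4 CPM in Il-17ra-Cre and 32.5, 75.6, 40.2 and 43.7 CPM in Il-17rc-Cre. It was higher in Il-17ra-Cre than in Il-17rc-Cre by 2.54 ± 0.45 (edgeR adjusted p = 0.0383) and higher in Il-17rb-Cre than in Il-17rc-Cre by 1.31 ± 0.44 (edgeR adjusted p = 0.0383). The second call ended in both blocks. It also ended without any 1 library other than Il-17ra-Cre replicates 1 and 3 and Il-17rc-Cre replicate 2 (1.16 to 1.29, edgeR adjusted p = 0.0647 to 0.114). The other gene called between Il-17ra-Cre and Il-17rc-Cre was Nfasc, the neurofascin of axon initial segments and of paranodal glia, at 38.5, 65.9 and 53.8 CPM in Il-17rb-Cre, 253, 261 and 75.8 CPM in Il-17ra-Cre and 37.4, 56.9, 44.4 and 61.7 CPM in Il-17rc-Cre (1.97 ± 0.39, edgeR adjusted p = 0.0399). Nfasc also had its highest values in that pair. Both calls between these groups ended without any 1 library other than Il-17ra-Cre replicate 3 or Il-17rc-Cre replicate 2, in the fit of only the 2 groups and in both blocks, where the log2 fold changes lay between 1.97 and 2.50 for Pex5l and between 1.68 and 2.09 for Nfasc. In these fits too, at most 0.0614% of all genes were higher and 0.142% lower. Without Il-17ra-Cre replicates 1 and 2 together Pex5l was 0.88 and Nfasc 0.53.

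Nfasc above and the partners that follow were chosen after their values were seen, beginning with the intracellular fibroblast growth factors that bind sodium channel tails. Fgf12 was at 220.1, 224 and 221 CPM in Il-17rb-Cre, 30.97, 35.2 and 86.8 CPM in Il-17ra-Cre and 69.5, 58.6, 67.2 and 55.5 CPM in Il-17rc-Cre. Fgf13 was at 212, 238 and 249 CPM in Il-17rb-Cre, 28.4, 36.8 and 68.1 CPM in Il-17ra-Cre and 73.1, 57.1, 81.2 and 56.1 CPM in Il-17rc-Cre. Both were higher in Il-17rb-Cre with no overlap, by 2.12 ± 0.34 and 2.39 ± 0.31 against Il-17ra-Cre and by 1.82 ± 0.31 and 1.80 ± 0.27 against Il-17rc-Cre (edgeR adjusted p = 0.000981, 0.000264, 0.00122 and 0.00063). Gem and Rrad, small GTPases that inhibit high-voltage-activated calcium channels through the beta subunits, were lower in Il-17rb-Cre. Gem was at 3.68, 3.32 and 2.53 CPM in Il-17rb-Cre, 28.8, 21.4 and 13.5 CPM in Il-17ra-Cre and 37.04, 20.3, 36.1 and 26.5 CPM in Il-17rc-Cre. Rrad was at 1.58, 1.49 and 0.472 CPM in Il-17rb-Cre, 31.6, 34.4 and 13.3 CPM in Il-17ra-Cre and 15.1, 23.5, 18.02 and 10.6 CPM in Il-17rc-Cre. In both genes every Il-17rb-Cre library was below every other library, at -2.74 ± 0.34 and -3.24 ± 0.34 for Gem (edgeR adjusted p = 0.000206 and 6.23e-05) and -4.48 ± 0.56 and -3.83 ± 0.53 for Rrad (edgeR adjusted p = 0.000214 and 0.000358). Rem2, on the same partner list, was not called against Il-17ra-Cre in the fit of all libraries. It was higher in Il-17rb-Cre by 2.92 in limma voom (adjusted p = 0.0426) and by 3.44 without Il-17ra-Cre replicate 3 (edgeR adjusted p = 0.0163). The sodium leak pore Nalcn and its partner Unc80 were higher in both comparisons, between 0.96 ± 0.28 and 1.20 ± 0.22 on the log2 scale (edgeR adjusted p = 0.02 for that of Nalcn against Il-17ra-Cre and 0.00197 for that of Unc80 against Il-17rc-Cre). The call of Nalcn against Il-17ra-Cre ended without Il-17ra-Cre replicate 1 or Il-17rb-Cre replicate 2 or 3 (edgeR adjusted p = 0.0662, 0.0666 and 0.055).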

How the data were processed

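The deposited table holds raw counts per gene for 10 libraries. Per the submitters' processing notes, reads were aligned with STAR 2.7.5c to GRCm38; the counter and its strand setting are not stated in the sources used here. Per the labels' protocols, libraries were made with the SMART-Seq v4 kit, which does not mark strand, so reads of overlapping genes cannot be told apart. There are no molecular identifiers, so PCR copies add to the spread of low counts.

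All 55536 identifiers were matched to GENCODE M21, which gave symbols, exon lengths and coordinates. Genes were kept with edgeR's filterByExpr by group (20301 kept, 35235 removed), scaled by TMM, and then compared by the quasi-likelihood F test of edgeR 4.0.16 (R 4.3.3) in 1 model of all libraries, with Benjamini-Hochberg adjustment over all genes tested and calls at 0.05. The common dispersion was 0.239. The steps were tested on simulated data. Level per length is CPM per kb of the union of exons, and shares are taken within each family. Values in every library are given for members with a mean of at least 5 CPM or a call, except that results of some members are not reported here; counts over members and family totals include them. Partners and markers are named for up to 4 genes per list with the highest CPM. Further partners, beginning with Nfasc, were chosen after their values were seen. The members, lists and tests were chosen with earlier results of these data known.

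Alternatives were DESeq2 1.42.0, limma 3.58.1 voom with quality weights, other scalings and filters, 2-group fits, replicate blocks, libraries left out, and longest transcripts for length. Whether replicate numbers pair libraries was checked by the correlation of their deviations from group means, with the result given beside the block values.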

Additional observations from a re-analysis of the deposited data

Results flagged for a closer look

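Among the 24 channel genes given in every library, the 4 Il-17rc-Cre libraries were examined for a single value far from the rest, and 2 genes were found. About 1 in 20 such groups is found by chance. Cacna1a, the P/Q-type pore, was at 15.5 CPM in Il-17rc-Cre replicate 2 and at 9.70, 10.4 and 10.5 CPM in the other Il-17rc-Cre libraries, a gap of 0.86 of the range. Cacna1e, the R-type pore, was at 17.3 CPM in the same library and at 8.09, 8.58 and 9.61 CPM in the others, a gap of 0.834 of the range.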

How the results depend on the processing

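The direction of the counts against Il-17ra-Cre and Il-17rc-Cre held in all fits, while single calls near the threshold moved. Leaving out 1 library at a time gave between 14 and 21 members higher and between 1 and 2 lower in Il-17rb-Cre against Il-17ra-Cre, between 15 and 18 higher and between 1 and 4 lower against Il-17rc-Cre, and between 0 and 1 higher and between 0 and 6 lower in Il-17ra-Cre against Il-17rc-Cre. In those fits 11.7% to 20.9% of all genes were higher and 19% to 26.1% lower against Il-17ra-Cre. Against Il-17rc-Cre the shares were 10.5% to 20.3% and 17.5% to 23.1%. The 6 arose without Il-17ra-Cre replicate 3, where 9 partners were also called, beside 7.31% of all genes higher and 6.38% lower. Leaving out any other library gave at most 1.85% and 1.23% between these groups. Partner calls ran from 16 to 22, from 13 to 18 and from 0 to 9 in the 3 comparisons. Against Il-17ra-Cre, DESeq2, limma voom and the fit without Il-17ra-Cre replicates 1 and 2 each gave 2 lower, and the last gave 9 higher and 11 partners. Of all genes, 27.8% were lower against Il-17ra-Cre in DESeq2 and 31.2% in limma voom. Against Il-17rc-Cre, DESeq2, limma voom and the 2-group fit each gave 4 lower, beside 26.8%, 26.2% and 27.2% of all genes. DESeq2 size factors and the filter at 1 CPM in 3 libraries gave 2, beside 23% and 27.7%. Between Il-17ra-Cre and Il-17rc-Cre, the 2-group fit, both replicate blocks and the fit without Il-17rc-Cre replicates 1 and 3 gave 0 higher and 0 partners. Those fits called 0% of all genes higher and at most 0.00985% lower. DESeq2 gave 1 lower and 5 partners, beside 4.82% of all genes higher and 5.53% lower. In limma voom 2 members were higher, 4 lower and 10 partners called, beside 13.4% and 9.18% of all genes. For these moves the cause was not tested, beyond the smaller number of libraries in the fits that leave some out.

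Some values turned sign, none of them called in the fit of all libraries. Hcn2 in Il-17rb-Cre against Il-17ra-Cre was 0.30 without Il-17ra-Cre replicates 1 and 2. Without that pair, Il-17ra-Cre against Il-17rc-Cre was 0.43 for Cacnb4, 0.58 for Scn3a and 0.14 for Cacnb3; leaving out 1 library at a time, Cacnb4 ran from -0.44 to 0.069 and Scn3a from -1.14 to 0.0098, with the top of each range without Il-17ra-Cre replicate 1. The lower ends arose without Il-17ra-Cre replicate 3 and were called in that fit (edgeR adjusted p = 0.0351 and 0.0495). With 1 Il-17ra-Cre library left, only sizes and directions are to be read. Upper quartile scaling moved the median of all genes by 0.13 and 0.10 in the comparisons of Il-17rb-Cre with Il-17ra-Cre and Il-17rc-Cre. It gave 18 and 19 members higher, beside 19% and 20.5% of all genes.

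With the replicate block, 16 members were higher and 1 lower in each comparison with Il-17rb-Cre and 0 were called between the other groups. Of all genes, 15.6% were higher and 22% lower there against Il-17ra-Cre, and 13.1% and 18.3% against Il-17rc-Cre. Between the other groups 0% of all genes were higher and 0.00985% lower. The block by library name, added after the data were seen because 2 libraries are numbered 4 in their names and 3 in their titles, gave 17 and 1. Of all genes, 14.2% were higher and 21.3% lower against Il-17ra-Cre in that fit, and 12.8% and 18.2% against Il-17rc-Cre. By title number, same-numbered libraries had correlations between -0.151 and 0.247, and 5 of 10 matched their own number best. Il-17rc-Cre replicate 4 had no same-numbered library to match. The matches to be had by chance were not worked out, and numbers in the library names were not checked. Whether the numbers pair libraries is thus not decided, and the fit of all libraries used no pairs. The levels of members at few reads are less certain. Cacng5 had 6, 174 and 121 reads in the Il-17rb-Cre libraries, at depths of 55007935, 78794795 and 71867914 counts. The source of that spread was not tested.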
